A study of Mus musculus with 8 samples.

Results

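Eukaryotic translation factors are the proteins that load messenger RNA and initiator tRNA onto ribosomes and then move the ribosome along the message. The genes described here are the initiation and elongation factor genes of mouse spermatids, taken as every row of the deposited table whose symbol starts with Eif or Eef followed directly by a digit, with 1 matching gene left out by the rule. This gave 59 genes of 16349 in the table. The rule reads names only, so the set also holds regulators such as the eIF2 kinases, the eIF4E-binding proteins and eEF2 kinase. RNA was measured in purified round spermatids, the early haploid germ cells, and in elongating spermatids, whose nuclei condense while a flagellum forms. Libraries of either stage carry the label wild type (WT) or conditional knockout (cKO) of Carm1, which encodes an enzyme that methylates arginines, and the 4 groups hold 2 libraries each. All mice were on the C57BL/6 background, and each sample came from 8 testes and was purified by centrifugal elutriation, without treatment. Neither the Cre line behind the deletion nor the age of the animals is given in these sources. The title of the series refers to p300, ACT and CREM, and its stated purpose is to find the genes whose expression depends on Carm1 in spermatids.

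In initiation, the eIF2 complex carries initiator tRNA to the small ribosomal subunit, eIF1 and eIF1A guide the choice of start codon, and the large eIF3 complex holds the assembly together. The eIF4F complex, made of the cap-binding eIF4E, the scaffold eIF4G and the helicase eIF4A, recruits the message, and eIF5 and eIF5B complete the joining of the large subunit. In elongation, eEF1A delivers aminoacyl-tRNA, the eEF1B subunits recycle eEF1A, and eEF2 drives translocation. Spermatids are known for making many messages long before they translate them, because transcription stops as the nucleus condenses.

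Recovered reads ranged from 17190962 to 23526694 per library, and the 59 genes took 1.30% to 1.31% of reads in the 4 round and 1.36% to 1.38% in the 4 elongating libraries. Levels below are read counts divided by the size factor of the authors, called normalised read counts, and fold changes are differences of log2(value + 1). The 50 most abundant genes of a library took 10.1% to 10.3% of reads at the round and 31.9% to 34.9% at the elongating stage, so the choice of scaling matters. With the deposited scaling all genes had a median log2 fold change with the KO label of 0.03 (round) and -0.07 (elongating), which total-count scaling moved to -0.06 and -0.61. That scaling shifted the log2 fold changes of all 59 factor genes down, with shifts of -0.09 (median) in round and -0.56 in elongating cells for the KO label and -1.47 between the stages in WT, so it shrank or turned rises and enlarged falls. Unless another is named, a call means an adjusted p under 0.05 in limma with the deposited scaling. Carm1 measured 1649 and 1686 (WT) against 1174 and 1343 (KO-labelled) in round cells and 4308 and 4534 against 8157 and 7993 in elongating cells. It was lower in round KO-labelled libraries (log2 fold change -0.41, SE 0.05, adjusted p = 3.8e-05) but higher in elongating KO-labelled libraries (log2 fold change 0.87, SE 0.05, adjusted p = 2.7e-09), and 0.31 there with total-count scaling. Since a rise is the opposite of what the label implies, the text speaks of KO-labelled libraries, and directions in elongating cells depend on a label that Carm1 itself did not bear out. The counts cover the whole gene, and the deleted exons are not named in these sources. Exons of Carm1 overlap those of Yipf2 on the other strand over 806 of 3369 bases. The libraries do not mark strand, so reads in that overlap cannot be told apart. Separate animals for the 2 libraries of a group are not stated in the labels, and p-values then cover only the spread from library to library, possibly a technical one. Paired values below stand in the order of replicates 1 and 2.

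The stage labels were checked against marker genes. All 10 elongating spermatid markers, among them the protamine genes Prm1 and Prm2, were higher in elongating than in round WT libraries, and all 10 spermatocyte markers tested were lower. In elongating KO-labelled against WT libraries 10 of 10 elongating spermatid markers rose (8 with total-count scaling), and their summed level was 217012 to 220599.8 (WT) against 232336 to 241366 (KO-labelled) in round cells and 3535362 to 3568873 against 6124784 to 6290108 in elongating cells. Macrophage markers summed to 129.8 to 159.8 (WT) against 193 to 207 (KO-labelled) in round cells and 4635 to 4659 against 1999.5 to 2089 in elongating cells, and 9 of 9 fell at the elongating stage while 4 rose at the round stage. Sertoli cell markers summed to 269 to 275 (WT) against 163 to 180.3 (KO-labelled) in round cells and 6074 to 6152 against 4400.5 to 4457 in elongating cells, and 5 and 5 of 9 fell at the round and the elongating stage. All 9 macrophage and all 9 Sertoli cell markers tested were higher in elongating than in round WT libraries, as were all 3 Leydig and 7 of 9 peritubular and vascular markers. Of 9 peritubular and vascular markers 4 rose and 2 fell in elongating KO-labelled libraries, of 8 spermatogonial markers 1 and 4, and of 10 spermatocyte markers 1 and 5. Over all tested genes 27.3% were higher and 27.7% lower in that contrast, and 19.4% and 12.6% in the round one, so several of these marker counts are near the background. For the KO label limma called 0 of the 3 Leydig markers tested at either stage (in elongating cells 1 at an unadjusted p under 0.05, 0 by edgeR and 0 by DESeq2). Of 8 markers fixed for round spermatids 3 were higher and 5 lower in elongating than in round WT libraries, and 3 rose and 5 fell with the KO label in elongating cells. In round cells 5 of these rose and 0 fell, and of elongating spermatid markers 6 and 0 (0 falls also by edgeR and DESeq2). Of spermatocyte markers 3 rose and 4 fell there, of peritubular and vascular ones 3 and 1, and of spermatogonial ones 3 and 0 (0 and 0 by DESeq2). Spermatocyte markers summed to 37362 to 37583 (WT) against 44104 to 45070 (KO-labelled) in round cells. The part of these other cells in the results below was not tested. In bulk libraries, fewer cells of a type and less RNA per cell cannot be told apart.

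Because CREM, the factor named in the title, binds the cAMP response element, promoter windows of the factor genes were searched for it on both strands. RefSeq windows (GRCm38.p6) run from 250 bases before to 50 after each annotated start and were at hand for 47 of the 59 genes. The full element TGACGTCA was in windows of 1 of 47 factor genes (2.13%), against 3.30% of 12382 genes of the table. The shorter run TGACGT, which the full element contains, was in windows of 10 factor genes (21.3%) against 11.8% of all genes. A match is a description of letters and not a binding site. The 6 segments below, each read 5′ to 3′ on the strand of its gene, show the full element of Eef2 and the shorter run of 5 other genes described later, with the matched letters in capitals (ACGTCA is TGACGT read on the other strand).
Eef2: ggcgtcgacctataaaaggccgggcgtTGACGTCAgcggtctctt
Eif4a1: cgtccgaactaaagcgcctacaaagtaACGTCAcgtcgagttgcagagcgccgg
Eif4e2: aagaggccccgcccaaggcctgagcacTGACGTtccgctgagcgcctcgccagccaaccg
Eif5a: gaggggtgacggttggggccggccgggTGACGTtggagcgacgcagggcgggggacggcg
Eif3a: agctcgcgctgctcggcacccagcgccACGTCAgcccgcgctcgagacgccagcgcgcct
Eif3d: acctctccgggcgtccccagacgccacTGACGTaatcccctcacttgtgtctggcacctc

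The segments lie at chr10:81176606-81176650 (plus strand, Eef2), chr11:69672404-69672457 (minus strand, Eif4a1), chr1:87213859-87213918 (plus strand, Eif4e2), chr11:69920930-69920989 (minus strand, Eif5a), chr19:60790756-60790815 (minus strand, Eif3a) and chr15:77970951-77971010 (minus strand, Eif3d). The element of Eef2 starts at base 3 of the annotated transcript, counted from 1, and the run of Eif4a1 begins 7 bases before its start.

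In round spermatids 16 of the 59 factor genes rose with the KO label and 4 fell, by small amounts. Background shares of all 15685 tested genes were 19.4% higher and 12.6% lower. The 20 called factor genes were thus 33.9% of the set, near the background of 32.0%. No called change was over 2-fold. The median was 0.04, against 0.03 for all genes. Total-count scaling turned the balance to 8 higher and 13 lower, where all genes stood at 14.0% and 19.5% (33.5%). Without round WT replicate 1 the counts were 8 and 2, and without round WT replicate 2 they were 11 and 2.

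In elongating spermatids 33 factor genes rose and 11 fell, against 27.3% and 27.7% of all tested genes (55.0% in all). Their median was 0.25 beside -0.07 for all genes, and 41 of 59 lay above that median. With total-count scaling 8 were higher and 39 lower, where 8.89% and 62.8% of all genes (71.7% in all) were called. Then 40 of 59 lay above the median of all genes (-0.31 against -0.61). That scaling moved the factor genes by -0.56 to -0.50 and the median of all genes by nearly as much. The place of a gene relative to the median could thus hardly change, and this count is no second test. Eif4ebp1, Eif1ax, Eif4h, Eif3k, Eef2, Eef1a1, Eif4g1 and Eif5 were higher under both scalings. The 11 that fell, Eif3i, Eif3m, Eif6, Eif2a, Eif5b, Eif3d, Eif2ak1, Eif3e, Eif4a1, Eif1a and Eif4e, were lower under both. A downward shift can only enlarge a fall, so their direction under the second scaling was fixed in advance. Called changes over 2-fold were those of Eif4ebp1, Eif3i and Eif3m. Elongating KO-labelled libraries also held the higher summed level of elongating spermatid markers and the lower one of macrophage and Sertoli markers given above, whose part in these changes was not tested.

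The differences between KO-labelled and WT libraries were themselves unlike at the stages for 33 factor genes, 25 with a more positive difference in elongating cells and 8 with a more negative one. Of all genes 19.3% and 17.5% were called in these directions (36.9% in all), and total-count scaling gave 10 and 29 factor genes against 5.47% and 45.1% (50.5%). With the direction of the elongating contrast turned, which the values of Carm1 put in doubt, 10 would be more positive and 31 more negative (all genes 25.4% and 28.0%, 53.4% in all). In elongating cells 55.0% of all tested genes were called. The share called at both stages was not counted over all genes, so the next counts describe the factor genes only. Of the 20 genes called in round cells, 19 were also called in elongating cells, with 13 higher at both stages, 1 lower at both (Eif4e) and 5 in opposite directions. Turning the elongating direction would make it 14 in opposite directions and 5 in the same one. Those 5 were Eif3d and Eif3m, higher in round and lower in elongating KO-labelled libraries, and Eif1b, Eif4a2 and Eif4g1, lower in round and higher in elongating. With total-count scaling the elongating changes of Eif1b and Eif4a2 were 0.01 and -0.13, and the round changes of Eif3d and Eif3m 0.08 and 0.17. The 14 genes that limma called at neither stage with the deposited scaling were Eef1b2, Eef1e1, Eef2kmt, Eif1ad, Eif2ak2, Eif2ak3, Eif2ak4, Eif2b1, Eif2b3, Eif2s2, Eif2s3x, Eif4a3, Eif4ebp2 and Eif4ebp3. In round cells edgeR called 2 of them higher (Eef1b2 and Eif4a3) and 3 lower (Eif2ak4, Eif2b1 and Eif2b3), and DESeq2 called 1 higher (Eif4a3). With total-count scaling limma called 13 of the 14 lower in elongating cells, leaving Eif2ak3, and 1 lower in round cells (Eif2b1). The plot of KO-label contrasts shows both stages side by side.

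**Figure D1:**
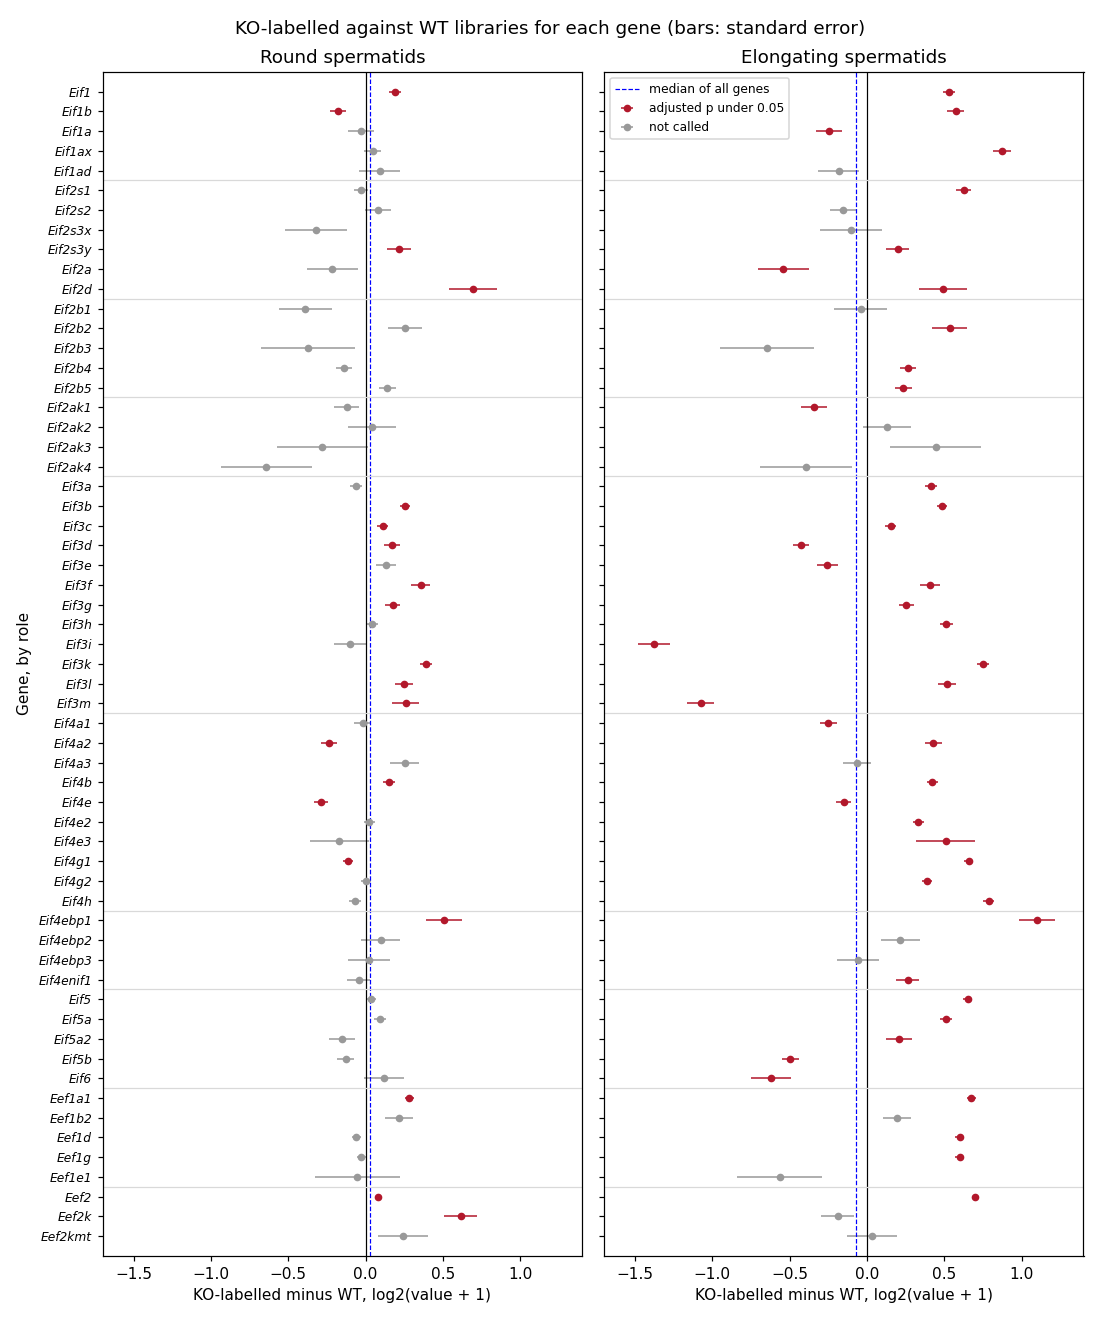
Log2 fold change of KO-labelled against WT libraries for each of the 59 genes in round (left) and elongating (right) spermatids, with standard errors and red points for adjusted p under 0.05, with the deposited scaling. The dashed line is the median of all genes (0.03 and -0.07), and 33 genes stand called to the right of 0 in elongating cells, of which 8 remain called higher with total-count scaling.

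Between the stages the set split. In WT, 29 factor genes were higher and 21 lower in elongating than in round cells, against 41.7% and 40.2% of all genes called (81.9%). Of these factor genes 19 and 10 changed over 2-fold, a share that was not counted over all genes. Total-count scaling moved the median of all genes from 0.01 to -1.42 and left 12 higher and 45 lower, with 19.6% and 68.8% (88.4%) of all genes. Those that were higher under both scalings were Eif4h, Eef1g, Eif1ax, Eif4e, Eif4e3, Eef1d, Eif1, Eif4g1, Eif4a2, Eif4ebp1, Eef1a1 and Eif5. Between KO-labelled libraries 32 were higher and 21 lower, with 42.6% and 41.8% of all genes (84.3%), and total-count scaling gave 13 and 45 against 16.7% and 72.8% (89.5%). The stage contrasts share their libraries with the KO-label contrasts, so their values are set side by side only.

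**Figure D2:**
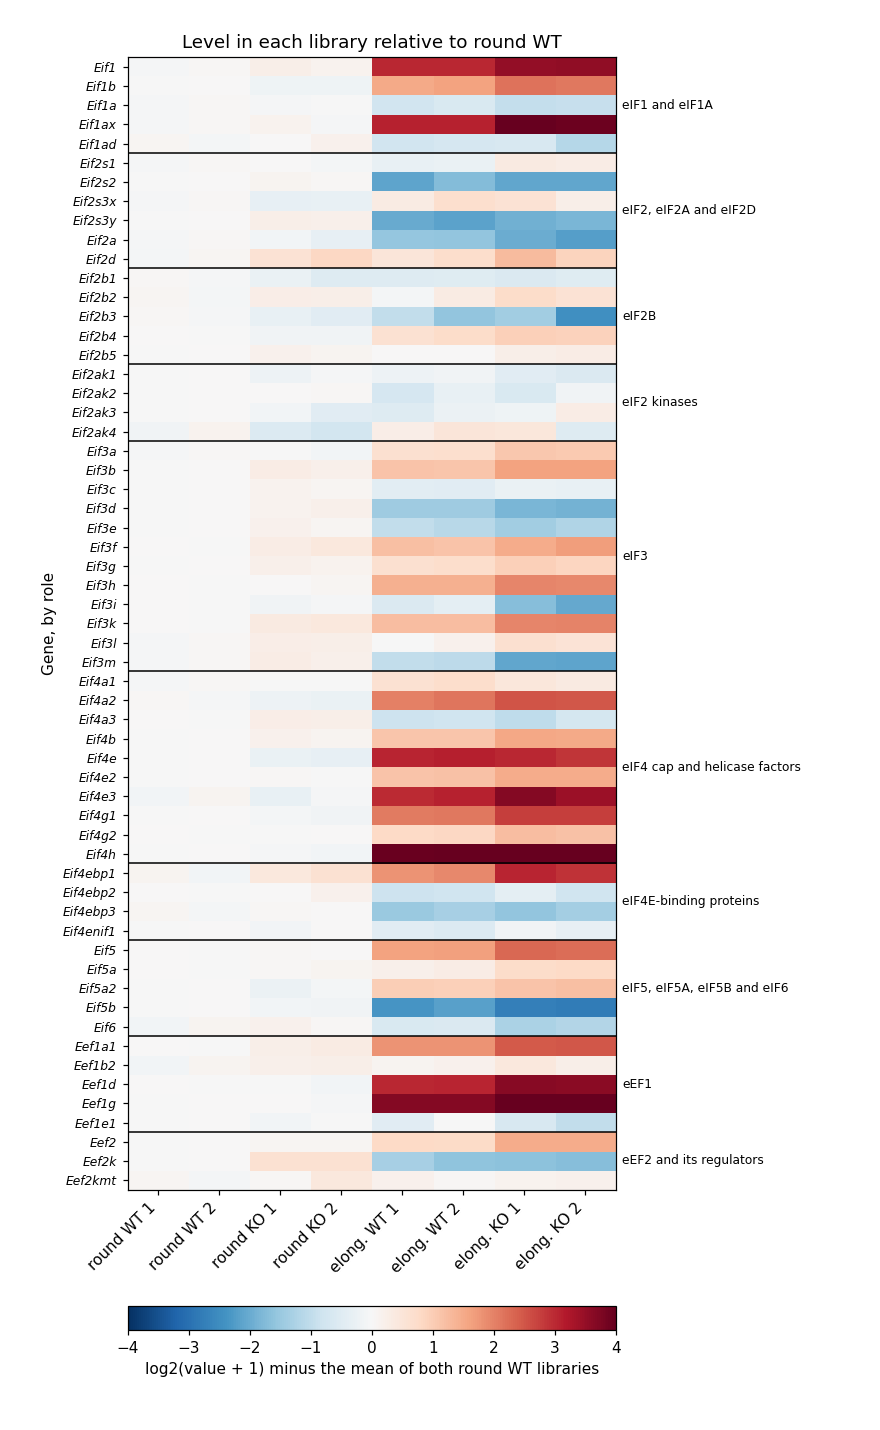
Level of each gene (rows, grouped by role) in each of the 8 libraries (columns, KO meaning KO-labelled), as log2(value + 1) minus the mean of both round WT libraries, with colours that end at 4 in either direction. Eif4h, Eef1g, Eif1ax, Eef1d, Eif4e and Eif1 are red in all 4 elongating libraries, and Eif5b, Eif2s2, Eif2s3y, Eif3d and Eef2k are blue there.

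**Figure D3:**
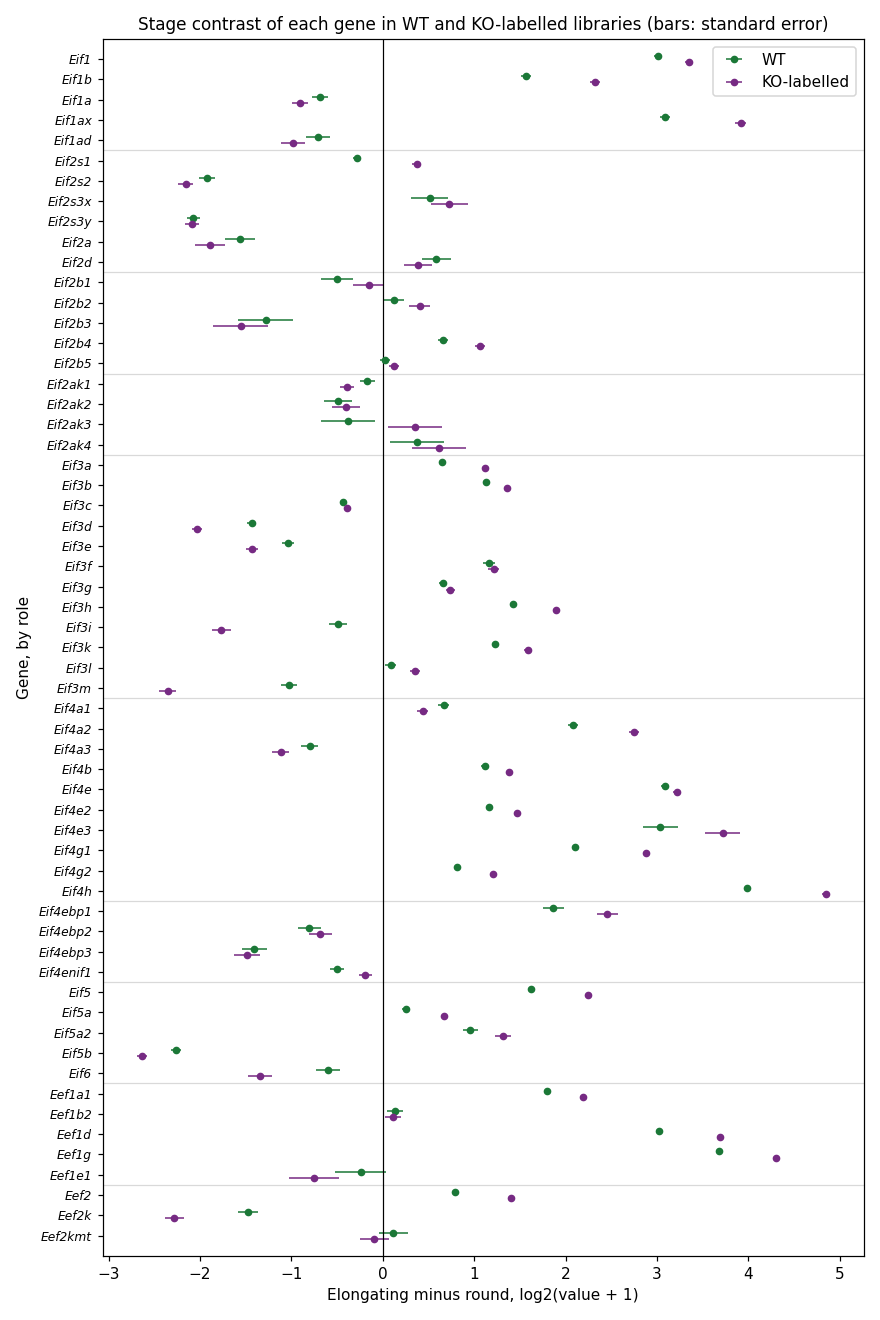
Log2 fold change of elongating against round libraries for each gene in WT and in KO-labelled libraries, with standard errors, as deposited. Eif4h is farthest to the right (3.99 and 4.84) and Eif5b farthest to the left (-2.26 and -2.63).

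Eif1 and Eif1b encode eIF1, which guards against wrong start codons, and Eif1a and Eif1ax encode eIF1A, its partner on the small subunit. Eif1ax (chromosome X, 159372178 to 159389928) measured 479 and 511 (WT) against 543 and 480.0 (KO-labelled) in round cells and 4222 and 4205 against 7855 and 7575 in elongating cells. Elongating libraries were far above round ones, and the elongating KO-labelled pair was above the WT pair (log2 fold change 0.87, SE 0.06, adjusted p = 5.1e-09, against 0.31 with total-count scaling). Round libraries overlapped between the labels (0.05, adjusted p = 0.60), and the elongating minus the round change was 0.83 (adjusted p = 1.2e-06). Its paralog Eif1a measured 397 and 432 (WT) against 402 and 409.6 (KO-labelled) in round cells and 241 and 273 against 215 and 217 in elongating cells. Eif1a was lower in elongating than in round WT cells (log2 fold change -0.69, SE 0.09, adjusted p = 2.7e-06) and fell in elongating KO-labelled libraries (log2 fold change -0.25, SE 0.09, adjusted p = 0.026, against -0.80 with total-count scaling), a call that edgeR (0.0522) and DESeq2 (0.19) did not make and that ended without elongating WT replicate 2 (adjusted p = 0.19) or elongating KO-labelled replicate 1 (0.0505). Per kb of exon, the share of Eif1ax in the pair was 49.3% and 48.8% (WT) against 52.1% and 48.6% (KO-labelled) in round cells and 93.4% and 92.6% against 96.7% and 96.6% in elongating cells. Such a share within a library does not depend on the scaling. It went from about even to nearly all of the pair, and with 2 libraries against 2 an exact permutation test cannot give a two-sided p under 0.333.

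Eif1 measured 2543 and 2706 (WT) against 3102 and 2889.9 (KO-labelled) in round cells and 21134 and 21143 against 30224 and 30802 in elongating cells. It rose with the KO label at both stages, by 0.19 in round (adjusted p = 0.0016) and 0.53 in elongating cells (adjusted p = 2.0e-08), with 0.10 and -0.03 under total-count scaling. Its reads are uncertain, since the genome (GENCODE vM21, GRCm38) holds 12 pseudogene copies of at least 95% identity over 300 bases. Eif1b measured 573 and 585 (WT) against 513 and 510.5 (KO-labelled) in round cells and 1671 and 1764 against 2632 and 2479 in elongating cells. The round KO-labelled pair was below the WT pair (log2 fold change -0.18, SE 0.05, adjusted p = 0.017) and the elongating pair above (log2 fold change 0.57, SE 0.05, adjusted p = 2.6e-07). The round call of Eif1b ended without any 1 of the 4 round libraries, with adjusted p = 0.062 and 0.12 without WT replicates 1 and 2 and 0.060 and 0.071 without KO-labelled replicates 1 and 2. Eif1ad, which encodes an eIF1A-like protein, shares exon sequence with Banf1 on the other strand. It was lower in elongating than in round WT cells (-0.71), and with the deposited scaling it was not called for the KO label (0.09 in round and -0.18 in elongating cells). In elongating cells it was lower with total-count scaling (-0.74, adjusted p = 1.0e-04).

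The eIF2 trimer, which binds initiator tRNA, is made from Eif2s1 (alpha), Eif2s2 (beta) and Eif2s3x or Eif2s3y (gamma). Eif2s1 measured 1918 and 2011 (WT) against 1991 and 1859.9 (KO-labelled) in round cells and 1610.1 and 1618 against 2546 and 2434 in elongating cells. It rose in elongating KO-labelled libraries (log2 fold change 0.62, SE 0.05, adjusted p = 2.8e-08, against 0.06 with total-count scaling) and was not called in round ones (-0.03). Eif2s2 measured 1742 and 1767 (WT) against 1892 and 1810.3 (KO-labelled) in round cells and 409 and 522 against 417 and 411 in elongating cells. It was 3.77-fold lower in elongating than in round WT cells (log2 fold change -1.92, SE 0.08, adjusted p = 9.1e-12, against -3.39 with total-count scaling). For the KO label it was not called with the deposited scaling (0.08 in round and -0.16 in elongating cells), but it was lower in elongating cells with total-count scaling (-0.72, adjusted p = 1.4e-06). Per kb of exon, the ratio of Eif2s1 to Eif2s2 was 0.822 and 0.8496 (WT) against 0.786 and 0.767 (KO-labelled) in round cells and 2.94 and 2.31 against 4.56 and 4.42 in elongating cells. The alpha gene was thus below the beta gene in all 4 round libraries and above it in all 4 elongating ones.

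The gamma gene on the Y chromosome, Eif2s3y, which is needed for spermatogonial proliferation in the mouse, measured 735 and 754 (WT) against 880.1 and 851 (KO-labelled) in round cells and 184 and 169 against 196 and 209 in elongating cells. Its level was 4.22-fold lower in elongating WT cells (log2 fold change -2.07, SE 0.08, adjusted p = 9.7e-13, against -3.53 with total-count scaling). Small rises with the KO label were called at both stages, 0.22 in round (adjusted p = 0.041) and 0.20 in elongating cells (adjusted p = 0.039). In round cells the call ended without any 1 of the round libraries, at adjusted p from 0.11 (without KO-labelled replicate 2) through 0.14 (WT replicate 2) and 0.21 (KO-labelled replicate 1) to 0.22 (WT replicate 1). In elongating cells it ended without elongating WT replicate 2 (0.21), elongating KO-labelled replicate 2 (0.14) or any round library (0.061 without KO-labelled replicate 2 and 0.062 without replicate 1, 0.068 and 0.068 without WT replicates 1 and 2), it was -0.36 with total-count scaling, and edgeR (0.31) and DESeq2 (0.32) did not call it. Its X-linked partner Eif2s3x measured 47.7 and 52.1 (WT) against 39.4 and 40.0 (KO-labelled) in round cells and 63.2 and 80.8 against 75.6 and 58.4 in elongating cells. It was not called for the KO label with the deposited scaling (-0.32 and -0.10), and in elongating cells it was -0.65, adjusted p = 0.0087 with total-count scaling. Per kb, the share of Eif2s3y in the gamma pair was 96.9% and 96.7% (WT) against 97.8% and 97.7% (KO-labelled) in round cells and 85.5% and 80.9% against 84.0% and 87.9% in elongating cells, so the Y copy was the larger part in every library.

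Eif2d, which encodes a factor that can deliver initiator tRNA without eIF2, measured 77.0 and 86.0 (WT) against 121 and 144 (KO-labelled) in round cells and 113 and 133 against 198 and 151 in elongating cells. It had the largest rise of the set in round cells (log2 fold change 0.69, SE 0.16, adjusted p = 0.0033), a call that ended without round KO-labelled replicate 2 (adjusted p = 0.058). In elongating cells it rose by 0.49 (adjusted p = 0.016), which ended without elongating WT replicate 1 (0.12) or elongating KO-labelled replicate 1 (0.14) and was -0.07 with total-count scaling. Eif2a, the gene of another alternative initiator tRNA factor, measured 139 and 146 (WT) against 132 and 114 (KO-labelled) in round cells and 47.7 and 47.6 against 34.9 and 30.2 in elongating cells. It was low in elongating cells and lower still with the KO label (log2 fold change -0.54, SE 0.16, adjusted p = 0.012, against -1.07 with total-count scaling). With edgeR the adjusted p of that fall was 0.088 and with DESeq2 0.20. In round cells Eif2a measured -0.21 (adjusted p = 0.36 in limma).

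The eIF2B genes encode the exchange factor that reloads eIF2 with GTP, and 0 of 5 were called by limma in round cells, beside 32.0% of all genes. At an unadjusted p under 0.05 there were 4, while edgeR called 5 (2 higher and 3 lower) and DESeq2 0. In elongating cells 3 rose, Eif2b2 by 0.53, Eif2b4 by 0.27 and Eif2b5 by 0.24, while with total-count scaling 0 were higher and 4 lower. Of all genes 27.3% were higher and 27.7% lower there, and 8.89% and 62.8% with total-count scaling. Eif2b4, the gene of the delta subunit, measured 996 and 971 (WT) against 892 and 894 (KO-labelled) in round cells and 1490.2 and 1619 against 1889 and 1847 in elongating cells. Eif2b3, the gene of the gamma subunit, measured 91.6 and 84.1 (WT) against 71.2 and 64.2 (KO-labelled) in round cells and 43.8 and 28.8 against 33.0 and 15.1 in elongating cells, lower in elongating than in round cells (log2 fold change -1.28, SE 0.30, adjusted p = 0.0012 in WT) with wide spread between the elongating libraries. Eif2b1 was also lower in elongating than in round WT cells (-0.50). With total-count scaling Eif2b1 and Eif2b3 were -0.59 (adjusted p = 0.0068) and -1.15 (adjusted p = 0.0023) in elongating KO-labelled cells.

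The 4 eIF2 kinases shut down initiation under stress, Eif2ak1 upon heme shortage, Eif2ak2 upon double-stranded RNA, Eif2ak3 upon stress of the endoplasmic reticulum and Eif2ak4 upon amino acid shortage. In round cells limma and DESeq2 called 0 of 4, and edgeR 1, Eif2ak4, which was also the 1 kinase gene with an unadjusted p under 0.05 in limma. Of all genes limma called 32.0% there. Eif2ak1 measured 400.2 and 409 (WT) against 352 and 392 (KO-labelled) in round cells and 352 and 366 against 295 and 271 in elongating cells. It fell in elongating KO-labelled libraries (log2 fold change -0.34, SE 0.08, adjusted p = 0.0024, against -0.90 with total-count scaling). Exons of Eif2ak1 overlap those of Aimp2 and Ankrd61 on the other strand, so reads in these overlaps cannot be told apart. Eif2ak2 measured 178 and 180.4 (WT) against 182 and 187 (KO-labelled) in round cells and 112 and 144 against 118 and 164 in elongating cells, and its elongating libraries overlapped between the labels (0.13, but -0.43, adjusted p = 0.021 with total-count scaling). Eif2ak3, at 16.8 to 30.2, and Eif2ak4, at 20.8 to 49.0, were low in read count in all 8 libraries. Their log2 fold changes were -0.28 and -0.64 in round and 0.44 and -0.39 in elongating cells, not called by limma with the deposited scaling. The round fall of Eif2ak4 was called by edgeR (-0.67, adjusted p = 0.0097), and its elongating change was -0.92, adjusted p = 0.0096 with total-count scaling.

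The eIF3 complex is the largest initiation factor, and 12 of its subunit genes were measured. In round cells 8 rose and 0 fell with the KO label, with a median of 0.17, beside the background of 19.4% of all genes higher. DESeq2 also gave 0 falls and edgeR 0, and limma 0 at an unadjusted p under 0.05. With total-count scaling, however, 4 rose and 1 fell, beside 14.0% and 19.5% of all genes. In elongating cells all 12 were called, 8 higher and 4 lower, and with total-count scaling 1 and 9. Of all genes 27.3% and 27.7% were called there (55.0% in all), and 8.89% and 62.8% with total-count scaling. The round calls of Eif3c, Eif3d, Eif3g, Eif3l and Eif3m were each lost without at least 1 round library. In elongating cells the subunits moved apart. Eif3m (chromosome 2, 104999656 to 105017080) measured 398 and 419 (WT) against 506 and 472 (KO-labelled) in round cells and 205 and 196 against 95.03 and 94.3 in elongating cells. Its libraries did not overlap between the labels at either stage, higher in round (log2 fold change 0.26, SE 0.09, adjusted p = 0.037) and lower in elongating KO-labelled cells (log2 fold change -1.07, SE 0.09, adjusted p = 7.3e-08, against -1.62 with total-count scaling). The elongating minus the round change was -1.33 (adjusted p = 8.1e-07). With the elongating direction turned it would be 0.82, beside 1.48 for Eif3i and -1.60 for Eif4ebp1. DESeq2 did not call the round rise (adjusted p = 0.065). The round call of Eif3m ended without any 1 of the round libraries, at 0.23 and 0.10 without WT replicates 1 and 2 and 0.25 and 0.080 without KO-labelled replicates 1 and 2.

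Eif3i, the gene of a WD-repeat subunit (chromosome 4, 129591960 to 129600648), measured 572 and 567 (WT) against 513 and 549 (KO-labelled) in round cells and 379 and 433 against 175 and 138 in elongating cells. Round KO-labelled libraries were a little below WT without a call (-0.10), while the elongating KO-labelled pair was 2.60-fold below the WT pair (log2 fold change -1.38, SE 0.10, adjusted p = 2.5e-08, against -1.93 with total-count scaling). Eif3d, whose product can bind the cap of some messages, measured 1833 and 1858 (WT) against 2035 and 2119.6 (KO-labelled) in round cells and 683 and 681 against 516 and 498 in elongating cells. It was 2.71-fold lower in elongating than in round WT cells (log2 fold change -1.43, against -2.90 with total-count scaling), rose in round KO-labelled libraries (log2 fold change 0.17, SE 0.05, adjusted p = 0.016) and fell in elongating ones (log2 fold change -0.43, SE 0.05, adjusted p = 3.5e-06, against -0.99 with total-count scaling). The round call ended without round WT replicate 1 (adjusted p = 0.12), WT replicate 2 (0.082) or KO-labelled replicate 2 (0.13). Its exons overlap an antisense gene, Gm17638, so reads of the pair cannot be told apart. Its promoter segment is printed above. Eif3e, the fourth gene that fell, went from 653 ± 34.0 to 547 ± 47.2 (SD, n = 2), a log2 fold change of -0.26 (-0.82 with total-count scaling). Its call (adjusted p = 0.0040) ended without elongating WT replicate 1 (0.0537).

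Among the subunits that rose, Eif3k measured 1626 and 1619.8 (WT) against 2074 and 2188 (KO-labelled) in round cells and 3825 and 3782 against 6307 and 6491 in elongating cells. The KO-labelled pair was above the WT pair at both stages, by 0.39 (SE 0.04, adjusted p = 3.0e-06) and 0.75 (adjusted p = 4.6e-10), and with total-count scaling by 0.30 and 0.19. Eif3f, whose product belongs to the same MPN-domain family as that of Eif3h, measured 809 and 798 (WT) against 981 and 1077 (KO-labelled) in round cells and 1838 and 1758 against 2238 and 2539 in elongating cells. It rose by 0.35 in round and 0.41 in elongating cells, where total-count scaling gave -0.16. Eif3b, the scaffold subunit gene with the highest level per kb of the complex, went from 16379 ± 75.9 to 22930.5 ± 89.2 in elongating cells (0.49, with -0.08 under total-count scaling). Eif3a, Eif3h, Eif3l, Eif3g and Eif3c had elongating log2 fold changes of 0.41, 0.51, 0.52, 0.25 and 0.15, and with total-count scaling -0.15, -0.05, -0.05, -0.31 and -0.41. Eif3a is another gene with a printed promoter segment.

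Per kb of exon, the highest eIF3 subunit gene was 8.02 to 8.14 times the lowest in the 4 round libraries. This ratio was 34.9 and 36.3 for elongating WT and 105 and 106 for elongating KO-labelled libraries. Eif3b was the highest in all 8, and Eif3m the lowest in all 4 elongating libraries. In elongating libraries the ratio thus rests on Eif3b and Eif3m alone and does not describe the other subunits. Within a library, the ratio of Eif3k to Eif3i per kb was 2.97 and 2.99 (WT) against 4.22 and 4.16 (KO-labelled) in round cells and 10.5 and 9.13 against 37.7 and 49.3 in elongating cells. It was higher in the KO-labelled pair than in the WT pair at each stage, whatever the scaling. These are the eIF3 genes with the largest rise and the largest fall in elongating cells, so the ratio restates their changes and is no separate evidence.

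**Figure D4:**
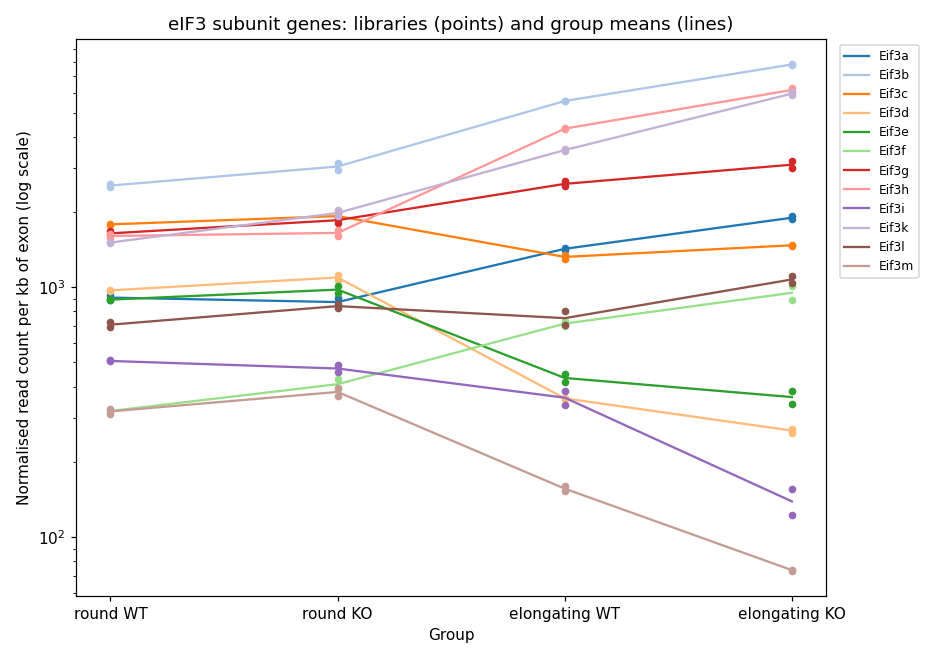
Normalised read count per kb of exon (log axis) of the 12 eIF3 subunit genes in the 4 groups, with a point for each library and a line through the group means. The subunits lie within 8.14-fold of each other in round libraries, while Eif3b, the highest, is 106-fold above Eif3m, the lowest, in elongating KO-labelled replicate 2.

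Of the cap-binding and helicase genes of the eIF4 group, 9 of 10 were higher in elongating than in round WT cells, with a median of 1.62 (5 higher and 5 lower with total-count scaling). Of all genes 41.7% were higher and 40.2% lower in this contrast, and 19.6% and 68.8% with total-count scaling. Eif4h (chromosome 5, 134619721 to 134639490), which stimulates the helicase eIF4A, measured 1109.7 and 1117 (WT) against 1082 and 1041 (KO-labelled) in round cells and 17345 and 18029.6 against 31013 and 30014 in elongating cells. It was 15.9-fold higher in elongating than in round WT cells, the largest stage rise of the set (log2 fold change 3.99, SE 0.04, adjusted p = 4.8e-20, against 2.52 with total-count scaling). In elongating cells it rose further with the KO label (log2 fold change 0.79, SE 0.04, adjusted p = 1.2e-10, against 0.22 with total-count scaling), while in round cells it measured -0.07 (adjusted p = 0.17). Its relative Eif4b, another stimulator of eIF4A, measured 2174 and 2198 (WT) against 2474 and 2382 (KO-labelled) in round cells and 4740.1 and 4724 against 6437 and 6249 in elongating cells, and the ratio of Eif4h to Eif4b per kb was 0.769 and 0.765 (WT) against 0.659 and 0.658 (KO-labelled) in round cells and 5.51 and 5.75 against 7.26 and 7.24 in elongating cells. Eif4h was thus the smaller of the pair in round and by far the larger in elongating libraries.

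Eif4e encodes the cap-binding protein itself. It measured 1420.2 and 1442 (WT) against 1197 and 1149 (KO-labelled) in round cells and 11896 and 12406 against 11501 and 10408 in elongating cells. It was 8.49-fold higher in elongating than in round WT cells (log2 fold change 3.08, against 1.62 with total-count scaling). It was the only factor gene that limma called lower with the KO label at both stages with the deposited scaling. In edgeR and in DESeq2 Eif5b joined it, and with total-count scaling 8 genes were called lower at both. The changes of Eif4e were -0.29 in round (SE 0.05, adjusted p = 2.4e-04) and -0.15 in elongating cells (SE 0.05, adjusted p = 0.012), against -0.38 and -0.71 (adjusted p = 8.2e-10 for the elongating one) with total-count scaling. With the deposited scaling the elongating call ended without elongating WT replicate 2 (adjusted p = 0.12) or KO-labelled replicate 2 (0.17). Eif4e2, which encodes a cap-binding repressor homolog and has a printed promoter segment, measured 2372 and 2474 (WT) against 2509 and 2417 (KO-labelled) in round cells and 5364 and 5478 against 6852 and 6794 in elongating cells. It rose in elongating KO-labelled cells as deposited (0.33) but measured -0.23 with total-count scaling. Eif4e3, whose exons overlap those of Gm20696 on the same strand, measured 17.2 and 20.6 (WT) against 15.3 and 18.03 (KO-labelled) in round cells and 156 and 167 against 254 and 209 in elongating cells. This low gene was higher in elongating cells (log2 fold change 3.04, SE 0.19, adjusted p = 8.1e-10 in WT, against 1.61 with total-count scaling), and its rise with the KO label there (0.51, adjusted p = 0.035) ended without elongating WT replicate 1 (0.14), WT replicate 2 (0.080) or KO-labelled replicate 1 (0.19) and was -0.05 with total-count scaling. Per kb, the share of Eif4e among the 3 genes was 46.1% and 45.4% (WT) against 40.7% and 40.5% (KO-labelled) in round cells and 74.9% and 75.2% against 68.8% and 67.2% in elongating cells. Its share was lower in the KO-labelled than in the WT pair at each stage.

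Eif4ebp1 encodes a protein that holds eIF4E inactive until mTOR phosphorylates it. It measured 85.3 and 72.6 (WT) against 105 and 120.0 (KO-labelled) in round cells and 275 and 304 against 656 and 586 in elongating cells. The KO-labelled pair was above the WT pair at both stages, with no overlap, by 0.51 in round (SE 0.12, adjusted p = 0.0037) and 1.10 in elongating cells (SE 0.12, adjusted p = 1.3e-06), the largest rise of the set there. With total-count scaling these were 0.42 and 0.53. The round call ended without round WT replicate 2 (adjusted p = 0.059) or KO-labelled replicate 2 (0.0548). Per kb, the ratio of Eif4e to Eif4ebp1 was 6.49 and 7.73 (WT) against 4.45 and 3.73 (KO-labelled) in round cells and 16.9 and 15.9 against 6.83 and 6.91 in elongating cells, lower in the KO-labelled pair at each stage. This restates the opposite changes of both genes given above. Eif4ebp2 measured 232 and 231 (WT) against 233 and 264 (KO-labelled) in round cells and 130.2 and 134 against 176 and 134 in elongating cells, and Eif4ebp3, whose exons overlap a readthrough gene, measured 192 and 170.1 (WT) against 186 and 181 (KO-labelled) in round cells and 64.5 and 70.7 against 60.1 and 69.8 in elongating cells. Both were lower in elongating than in round WT cells (-0.80 and -1.41). With the deposited scaling neither was called for the KO label, while in elongating cells Eif4ebp2 was -0.34, adjusted p = 0.021 with total-count scaling, and Eif4ebp3 was -0.61 (adjusted p = 0.0012). Eif4enif1, the gene of the transporter 4E-T that carries eIF4E into the nucleus, rose by 0.26 in elongating cells as deposited and measured -0.30 with total-count scaling. That call ended without elongating WT replicate 2 (adjusted p = 0.065) or KO-labelled replicate 1 (0.071).

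The scaffold gene Eif4g1 measured 5113 and 5236 (WT) against 4851 and 4712 (KO-labelled) in round cells and 22072 and 22499.9 against 35297 and 35046 in elongating cells. It was 4.31-fold higher in elongating than in round WT cells (log2 fold change 2.11, against 0.64 with total-count scaling), fell slightly in round KO-labelled libraries (log2 fold change -0.11, SE 0.03, adjusted p = 0.0081) and rose in elongating ones (log2 fold change 0.66, SE 0.03, adjusted p = 9.4e-11, against 0.09 with total-count scaling). The round call ended without round WT replicate 2 (adjusted p = 0.090). Eif4g2, whose product lacks the eIF4E-binding region, measured 8956 and 8914 (WT) against 8823 and 9067 (KO-labelled) in round cells and 15515 and 15918 against 20942 and 20177 in elongating cells. Its elongating rise with the KO label was 0.39 as deposited and -0.18 with total-count scaling. The share of Eif4g1 in this pair per kb was 43.1% and 43.8% (WT) against 42.1% and 40.8% (KO-labelled) in round cells and 65.3% and 65.2% against 69.1% and 69.7% in elongating cells, the smaller part in round and the larger in elongating libraries.

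The balance of the helicase genes Eif4a1 and Eif4a2 shifted between the stages. Eif4a1, which has a printed promoter segment, measured 753 and 795 (WT) against 757 and 769 (KO-labelled) in round cells and 1194 and 1262 against 1069 and 997 in elongating cells, and Eif4a2 measured 494 and 471 (WT) against 415 and 403 (KO-labelled) in round cells and 1965 and 2113 against 2768 and 2720.3 in elongating cells. Eif4a1 fell in elongating KO-labelled libraries (log2 fold change -0.25, SE 0.06, adjusted p = 0.0019, against -0.81 with total-count scaling), while Eif4a2 fell in round (log2 fold change -0.24, SE 0.05, adjusted p = 0.0036) and rose in elongating ones (log2 fold change 0.43, SE 0.05, adjusted p = 8.4e-06, but -0.13 with total-count scaling). The round call of Eif4a2 ended without round WT replicate 1 (adjusted p = 0.0530). Per kb, the share of Eif4a1 in the pair was 73.3% and 75.3% (WT) against 76.7% and 77.4% (KO-labelled) in round cells and 52.3% and 51.8% against 41.0% and 39.8% in elongating cells. It was the larger part in all 4 round libraries and lower in elongating KO-labelled than in elongating WT libraries. Eif4a3, which belongs to the exon junction complex, measured 503 and 496 (WT) against 601 and 589.9 (KO-labelled) in round cells and 284 and 289.8 against 244 and 307 in elongating cells, lower in elongating than in round WT cells (-0.80). For the KO label limma with the deposited scaling called neither stage, but edgeR called the round rise (0.25, adjusted p = 3.0e-04), as did DESeq2 (adjusted p = 0.037). In elongating cells Eif4a3 was -0.63, adjusted p = 3.2e-05 with total-count scaling. Eif4a1, Eif4a2 and Eif4a3 have near-identical pseudogenes or copies, so part of their reads is uncertain.

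**Figure D5:**
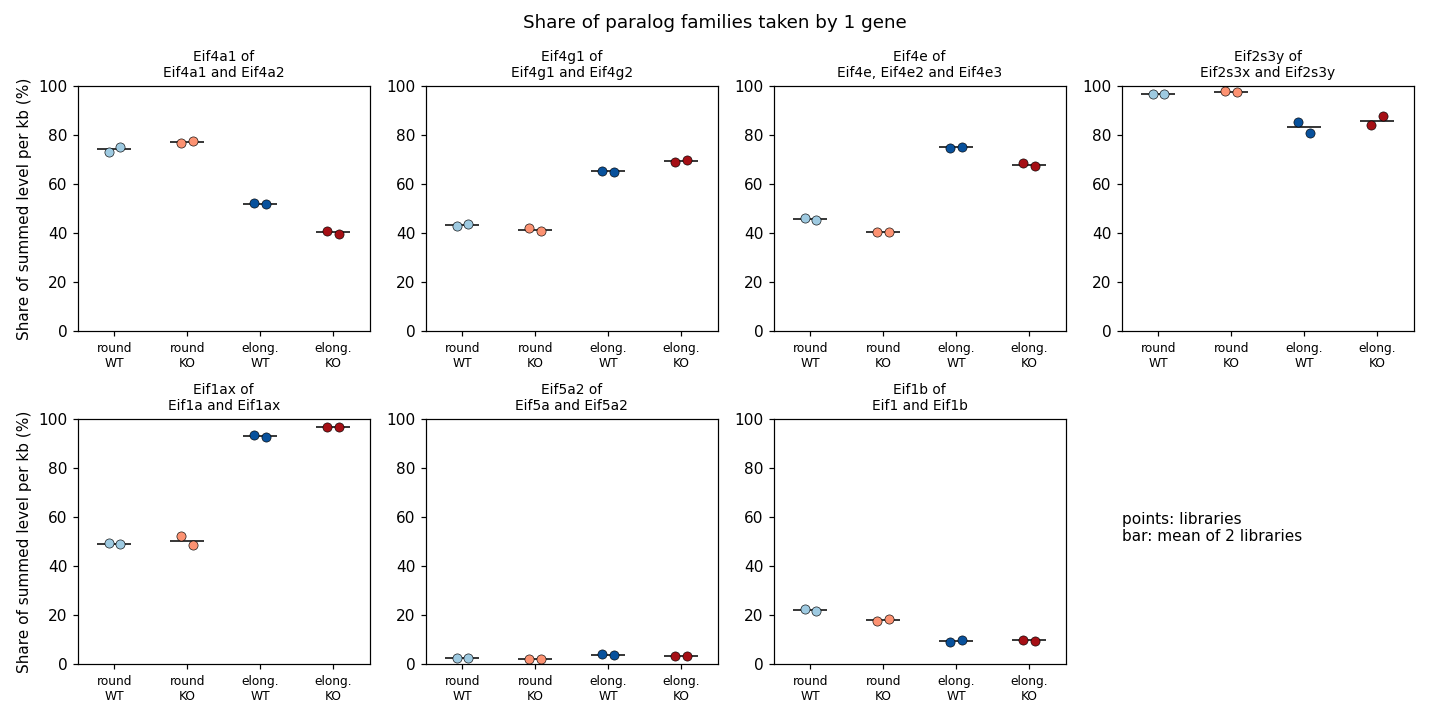
Share (%) of the summed level per kb of exon that 1 gene takes within its paralog family, for each library (points) and as the mean of 2 libraries (bars), in the 4 groups. Eif1ax goes from 49.3% in round WT replicate 1 to 96.7% in elongating KO-labelled replicate 1, and Eif4a1 from 73.3% to 41.0%.

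Among the late initiation factors, Eif5, the gene of the GTPase activator of eIF2, measured 5396 and 5336 (WT) against 5550.1 and 5437 (KO-labelled) in round cells and 16399 and 16679.9 against 26614 and 25326 in elongating cells. It rose in elongating KO-labelled cells (log2 fold change 0.65, SE 0.03, adjusted p = 2.1e-10, against 0.09 with total-count scaling). Eif5b, whose product joins the large ribosomal subunit, went the other way between the stages and measured 5545 and 5664 (WT) against 5207 and 5043 (KO-labelled) in round cells and 1094 and 1242 against 849 and 803 in elongating cells. It had the largest stage fall of the set, 4.80-fold in WT (log2 fold change -2.26, SE 0.05, adjusted p = 5.0e-15, against -3.73 with total-count scaling). It fell further with the KO label in elongating cells (log2 fold change -0.50, SE 0.05, adjusted p = 1.8e-06, against -1.06 with total-count scaling). In round cells, where the KO-labelled pair was also below the WT pair, it measured -0.13 (adjusted p = 0.086 in limma), a fall that edgeR (0.0027) and DESeq2 (0.029) called. Within a library the ratio of Eif5 to Eif5b per kb was 1.7995 and 1.74 (WT) against 1.97 and 1.99 (KO-labelled) in round cells and 27.7 and 24.8 against 57.9 and 58.3 in elongating cells. These ratios restate the opposite changes of both genes. The exons of Eif5b overlap those of Rev1 on the other strand, so reads of that pair cannot be told apart. Eif6, which keeps the large subunit from joining too early, measured 149 and 171 (WT) against 181 and 166 (KO-labelled) in round cells and 103 and 107 against 65.9 and 69.8 in elongating cells. It was lower in elongating KO-labelled cells (log2 fold change -0.62, SE 0.13, adjusted p = 8.8e-04, against -1.17 with total-count scaling).

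Eif5a encodes the hypusine-bearing factor that helps ribosomes through prolines, and has a printed promoter segment. It measured 4487 and 4319 (WT) against 4594 and 4790.3 (KO-labelled) in round cells and 5114 and 5372 against 7312 and 7635 in elongating cells. It rose in elongating KO-labelled cells by 0.51 as deposited and measured -0.05 with total-count scaling. Its paralog Eif5a2 measured 225 and 232 (WT) against 194 and 219 (KO-labelled) in round cells and 449.9 and 441 against 500.4 and 528 in elongating cells. The deposited rise of 0.21 ended without elongating WT replicate 1 (adjusted p = 0.10), WT replicate 2 (0.15), KO-labelled replicate 2 (0.16) or round WT replicates 1 and 2 (0.069 and 0.069), it was -0.36 with total-count scaling, and edgeR (0.096) and DESeq2 (0.18) did not call it. Per kb, the share of Eif5a2 in the pair was 2.32% and 2.48% (WT) against 1.96% and 2.11% (KO-labelled) in round cells and 3.99% and 3.74% against 3.13% and 3.17% in elongating cells.

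Per kb of exon, Eef1a1 was the highest gene of the set in all 8 libraries, at 10889.6 and 10877 normalised reads per kb in round WT. Eef2 was next in round libraries, at 9336 and 9439.9 in round WT, and Eef1g in elongating ones, at 26385 and 26833 in elongating WT. Eef1a1 (chromosome 9, 78478449 to 78489151), the carrier of aminoacyl-tRNA, measured 19536 and 19513 (WT) against 22959 and 24504 (KO-labelled) in round cells and 67707 and 67654 against 107846 and 108253 in elongating cells. KO-labelled libraries were above WT at both stages, by 0.28 (adjusted p = 4.1e-06) and 0.67 (adjusted p = 5.9e-11), and with total-count scaling by 0.19 and 0.11. It has 8 near-identical pseudogene copies, so its reads are uncertain. The eEF1B genes encode the exchange factor of eEF1A. Eef1g measured 3859.8 and 3919 (WT) against 3894 and 3735 (KO-labelled) in round cells and 49181 and 50017 against 76059 and 74265 in elongating cells, and Eef1d measured 7508 and 7499.6 (WT) against 7385 and 7019 (KO-labelled) in round cells and 60242 and 62037 against 93597 and 91614 in elongating cells. Both were far higher in elongating than in round cells (log2 fold change 3.67, SE 0.03, adjusted p = 1.6e-20 for Eef1g in WT, and 3.03 for Eef1d, against 2.21 and 1.56 with total-count scaling), and both rose by 0.60 with the KO label in elongating cells, but measured 0.04 and 0.04 with total-count scaling. Eef1g has 4 near-identical pseudogene copies, and exons of Eef1d overlap those of Naprt over 277 bases, so part of their reads is uncertain. Eef1b2, the other exchange factor subunit gene, measured 329.6 and 381 (WT) against 406 and 418 (KO-labelled) in round cells and 380.3 and 395 against 477 and 413 in elongating cells. In limma with the deposited scaling it had no call in any contrast (0.13 between the stages in WT). Its round rise was called by edgeR (0.21, adjusted p = 0.0084). With total-count scaling it was lower in elongating KO-labelled cells (-0.37, adjusted p = 0.0013) and between the stages in WT (-1.33, adjusted p = 3.7e-10). The ratio of Eef1g to Eef1b2 per kb was 12.2 and 10.7 (WT) against 9.98 and 9.31 (KO-labelled) in round cells and 135 and 132 against 166 and 187 in elongating cells. Eef1e1, whose product belongs to the tRNA synthetase complex, was low (15.1 to 30.9) and was not called for the KO label with the deposited scaling (-0.56 in elongating cells, but -1.06, adjusted p = 0.0026 with total-count scaling).

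Eef2 (chromosome 10), the translocation factor gene with the full cAMP response element in its window, measured 28837 and 29159.9 (WT) against 30747 and 30641 (KO-labelled) in round cells and 50192 and 49783 against 81869.6 and 80631 in elongating cells. It rose in elongating KO-labelled cells (log2 fold change 0.70, SE 0.02, adjusted p = 7.1e-12, against 0.14 with total-count scaling). In round cells the rise was 0.08 (adjusted p = 0.015), -0.01 with total-count scaling, and the call ended without round WT replicate 1 (adjusted p = 0.11) or replicate 2 (0.0538). Eef2k, the kinase that inactivates eEF2, measured 315 and 326 (WT) against 490.3 and 492 (KO-labelled) in round cells and 126 and 104 against 103 and 98.0 in elongating cells. Round KO-labelled libraries were 1.53-fold above WT (log2 fold change 0.62, SE 0.11, adjusted p = 4.6e-04), and elongating libraries were lower than round ones and not called between the labels with the deposited scaling (-0.19, adjusted p = 0.15). With total-count scaling they were lower in the KO-labelled pair (-0.74, adjusted p = 1.8e-05). The elongating minus the round change was -0.80 (adjusted p = 6.4e-04), or -1.27 with total-count scaling, and with the elongating direction turned it would be -0.43 (adjusted p = 0.027). Eef2kmt, the gene of a methyltransferase that acts on eEF2, measured 73.8 to 104 and its exons overlap those of Alg1. It was called in no contrast by limma with the deposited scaling, but with total-count scaling it was lower in elongating KO-labelled cells (-0.52, adjusted p = 0.0098) and between the stages (-1.33 in WT and -2.01 in KO-labelled libraries).

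Genes that act with these factors were counted in 6 lists. Over all tested genes 19.4% rose and 12.6% fell in round and 27.3% rose and 27.7% fell in elongating cells (8.89% and 62.8% with total-count scaling). Of 16 genes of cap and poly(A) binding and storage, 3 rose and 4 fell in round and 4 rose and 7 fell in elongating cells (1 and 13 with total-count scaling). Paip2, an inhibitor of poly(A)-binding protein, rose by 0.84 in elongating cells. The germ-cell RNA-binding gene Dazl fell by 0.82 in elongating and by 0.44 in round cells. In round cells the helicase gene Ddx3x fell by 0.69 and Angel1 rose by 0.27, while Angel1 fell by 0.15 in elongating cells. Of 7 tested genes of termination and recycling, 1 rose and 1 fell in round and 4 rose and 2 fell in elongating cells (1 and 3 with total-count scaling). Among them were the ribosome rescue gene Pelo at 0.38 and 0.83, Abce1 at -0.32 and -0.15, and Gspt1 at -0.23 in elongating cells. Of 8 genes that make hypusine on eIF5A or diphthamide on eEF2, 2 rose and 0 fell in round and 2 rose and 3 fell in elongating cells (2 and 4 with total-count scaling). For the 0 count, limma gave 0 falls at an unadjusted p under 0.05, edgeR 1 and DESeq2 0. Dohh, the last enzyme of hypusine synthesis, fell by 1.02 in elongating cells, Dph5 rose by 1.18 there, and Dph1 rose by 1.06 in round cells.

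Of 13 genes of mTOR and MNK signalling, the pathways that phosphorylate eIF4E-binding proteins and eIF4E, 4 rose and 2 fell in round and 5 rose and 3 fell in elongating cells (2 and 7 with total-count scaling). The backgrounds over all tested genes were 32.0% called in round and 55.0% in elongating cells (27.3% higher and 27.7% lower, or 8.89% and 62.8% with total-count scaling), against which the counts of this and the next lists are to be read. Mtor measured 4276 and 4444 (WT) against 7365 and 7506 (KO-labelled) in round cells and 3006 and 3161 against 8688 and 8757 in elongating cells. Its KO-labelled pair was above the WT pair at both stages (log2 fold change 0.77, SE 0.04, adjusted p = 1.5e-09 in round cells, and 2.83-fold higher with adjusted p = 3.2e-13 in elongating cells). Rptor, its partner in complex 1, fell by 0.27 in round and by 0.27 in elongating cells, and Pdcd4, an inhibitor of eIF4A, by 0.54 in elongating cells. Of 9 tested genes of the integrated stress response downstream of the eIF2 kinases, 0 rose and 3 fell in round and 3 rose and 4 fell in elongating cells (1 and 7 with total-count scaling). In round cells edgeR called 2 of these genes higher and DESeq2 1, and limma 0 at an unadjusted p under 0.05. Ppp1r15a, whose product brings the phosphatase to eIF2, rose by 1.69 and Sesn2 fell by 0.98 in elongating cells. Dnajc3 fell by 0.41 in round and by 0.38 in elongating cells. Of 13 selenocysteine and mitochondrial translation factor genes, 3 rose and 0 fell in round and 5 rose and 3 fell in elongating cells (1 and 9 with total-count scaling), with the mitochondrial elongation factor gene Tufm at 0.57 and 0.92 and Sepsecs at -1.08. Falls of these genes in round cells numbered 1 by edgeR, 0 by DESeq2 and 0 by limma at an unadjusted p under 0.05. The medians of the 6 lists in elongating cells ran from -0.19 to 0.50, beside -0.07 for all genes.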

How the data were processed

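RNA-seq of 8 mouse spermatid libraries was analysed from 1 deposited table. Libraries were made with a TruSeq RNA kit, which does not mark strand, per the labels' protocols, and the tools named are TopHat2 2.0.10, HTSeq 0.6.0, DESeq 1.16.0 and CASAVA 1.8.2, per the submitters' processing notes, which are held here without settings or order. The deposited values are a normalised signal. They are whole read counts divided by 1 factor per library, and the authors name them DESeq counts. Whole reads were recovered for 100% of values (tolerance 1e-06). Tests kept genes that reached 10 or more in 2 or more libraries (15685 of 16349, and all 59 factor genes). The main test was limma 3.58.1 (R 4.3.3) with a mean-variance trend on log2(value + 1), 4 group means and 4 residual degrees of freedom, two-sided, with Benjamini-Hochberg adjustment over all tested genes, called at an adjusted p under 0.05. This test was planned for a table of normalised values, although whole reads could be recovered from it. Alternatives were total-count scaling, library sizes without the 50 most abundant genes, edgeR 4.0.16 and DESeq2 1.42.0 on recovered reads, other filters and pseudocounts, a 4-library fit, a replicate block, leaving out each library and, added after seeing the data, the elongating contrast with its direction turned. The fit was tested on simulated data first.

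Libraries of a group differed by more than sampling noise (chi-square per gene 1.39 to 2.39), so none was counted as a duplicate. Levels per kb divide by the summed exon length of GENCODE vM21 (GRCm38), which may not be the annotation the authors counted on. Pseudogene copies of at least 95% identity over 300 bases exist for 15 factor genes. Besides Eif1, Eef1a1, Eif4a1, Eif4a2 and Eif4a3 these are Eef1g, Eef2, Eif2s1, Eif2s2, Eif2s3x, Eif3e, Eif3h, Eif3m, Eif4e and Eif5a. Exons of 19 factor genes overlap those of another gene. Part of the reads of all these genes is uncertain. Counting intervals would cover counting error only and are not given. Size factors of the elongating libraries were 0.516 to 0.776, so normalised values there stand above the reads. Counting error is not small for low genes such as Eif2b3, Eef1e1, Eif2ak3 and Eif2a. All factor genes could be named. Values by library are given for the 6 largest rises and falls of each KO-label contrast, the 4 largest differences between stages, the paralog families and further members, and values of pathway genes for the largest called rise and fall of each list. The factor genes, lists and tests were chosen with earlier results of these data known.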

Additional observations from a re-analysis of the deposited data

Results flagged for a closer look

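The difference between KO-labelled and WT libraries was unlike at the stages for 33 of the 59 factor genes, by the test of the difference itself (limma, adjusted p from 5.8e-09 to 0.038). Over all tested genes 36.9% were called in this test, 19.3% more positive and 17.5% more negative. The values are the log2 fold change of KO-labelled against WT in elongating cells minus that in round cells, with the deposited scaling. Among the genes of eIF1, eIF1A, eIF2 and eIF2B it was more positive in elongating cells for Eif1ax (0.83), Eif1b (0.75), Eif2s1 (0.65), Eif2b4 (0.41) and Eif1 (0.34). Among the eIF3 subunit genes it was more positive for Eif3a (0.47), Eif3h (0.47), Eif3k (0.36), Eif3l (0.27) and Eif3b (0.23) and more negative for Eif3m (-1.33), Eif3i (-1.28), Eif3d (-0.60) and Eif3e (-0.39). In the eIF4 group and its binding proteins it was more positive for Eif4h (0.86), Eif4g1 (0.77), Eif4a2 (0.67), Eif4ebp1 (0.59), Eif4g2 (0.39), Eif4enif1 (0.31), Eif4e2 (0.31) and Eif4b (0.27) and more negative for Eif4a1 (-0.23). Among the late initiation factors it was more positive for Eif5 (0.62), Eif5a (0.42) and Eif5a2 (0.36) and more negative for Eif6 (-0.74) and Eif5b (-0.37). Among the elongation factors and their regulators it was more positive for Eef1d (0.66), Eef1g (0.63), Eef2 (0.62) and Eef1a1 (0.39) and more negative for Eef2k (-0.80). The median difference over all genes was -0.04 with the deposited and -0.49 with total-count scaling. Under the latter 10 factor genes were more positive and 29 more negative (5.47% and 45.1% of all genes, 50.5% in all). All these signs rest on the KO label of the elongating libraries, in which Carm1 was higher. With the elongating direction turned, 10 would be more positive and 31 more negative (all genes 25.4% and 28.0%, 53.4% in all), with Eif4ebp1 at -1.60, Eif3i at 1.48 and Eif3m at 0.82. The calls of Eif3l, Eif4a1, Eif4ebp1, Eif4enif1 and Eif5a2 were lost without at least 1 of the libraries.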

How the results depend on the processing

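Scaling moved the counts of called factor genes most. Shares over all genes are given for total-count scaling and for the turned direction. For the other alternatives they were not counted, so those counts describe the factor genes only. Total-count scaling gave 8 higher and 13 lower in round cells, 8 higher and 39 lower in elongating cells, 10 higher and 29 lower for the difference between stages, 12 higher and 45 lower for the stages in WT and 13 higher and 45 lower for the stages in KO-labelled libraries. Library sizes without the 50 most abundant genes gave 9 higher and 13 lower in round cells, 11 higher and 35 lower in elongating cells, 10 higher and 25 lower for the difference between stages, 17 higher and 39 lower for the stages in WT and 15 higher and 42 lower for the stages in KO-labelled libraries. Under these scalings the sign of the round change turned for Eef2 (-0.00747 with the first and -0.00537 with the second). In elongating cells it turned with total-count scaling for Eif2d (-0.069), Eif3f (-0.16), Eif4a2 (-0.13), Eif4e2 (-0.23), Eif4e3 (-0.050), Eif4g2 (-0.18), Eif5a (-0.052), Eif5a2 (-0.36), Eif1 (-0.034) and Eif2s3y (-0.36), and without the 50 most abundant genes for Eif2d (-0.010), Eif3f (-0.097), Eif4a2 (-0.074), Eif4e2 (-0.17), Eif4g2 (-0.12), Eif5a2 (-0.30) and Eif2s3y (-0.30). With the direction of the elongating contrast turned, an alternative chosen after seeing the data, the difference between stages had 10 more positive and 31 more negative (all genes 25.4% and 28.0%). In round cells edgeR called 9 lower, and a fit of the 4 round libraries alone 9. Leaving out 1 library at a time gave 8 to 19 higher and 2 to 6 lower in round cells, 29 to 33 higher and 10 to 13 lower in elongating cells, 22 to 26 higher and 7 to 9 lower for the difference between stages, 28 to 31 higher and 20 to 22 lower for the stages in WT and 31 to 34 higher and 18 to 21 lower for the stages in KO-labelled libraries, with the lone library of a group assumed to vary like the others. A pseudocount of 10, no filter, a minimum of 100 and DESeq2 kept every count within 1.5 times its value. Same-numbered libraries did not deviate together (correlations -0.08 to 0.02). Sampling noise in these deviations can hide a shared effect, and the labels do not state whether same-numbered libraries share animals. Whether the replicate number pairs libraries thus cannot be told. With the replicate block the counts were 16 higher and 4 lower in round cells, 32 higher and 12 lower in elongating cells, 25 higher and 8 lower for the difference between stages, 29 higher and 21 lower for the stages in WT and 32 higher and 21 lower for the stages in KO-labelled libraries. With 2 libraries per group, an exact permutation test over 1 contrast cannot reach a p below 0.333, so each call rests on a spread shared across genes and groups.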
